A study of Mus musculus with 2 samples.

Results

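The genes described here are 10 that mark alternative activation of macrophages and the response to interleukin 4 (IL-4). They were taken by symbol: Il4ra, Mrc1, Mgl2, Cd200r1, Pdcd1lg2, Arg1, Retnla, Tgm2, Socs2 and Cish. Of these, 9 had a row among the 15576 genes of the table. Retnla, which encodes the secreted protein RELMalpha, had none under its symbol or its Ensembl identifier, and its level was not analysed here. FPKM (reads per kilobase and 1e6 reads) was below 1 in both libraries for 5 of the 9: Mgl2, Pdcd1lg2, Arg1, Socs2 and Cish. For comparison, 37.3% of all genes in the table were below 1 in both.

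RNA was sequenced from cultured mouse bone marrow-derived macrophages (BMDMs), labelled wild type. The DCA library came from cells given deoxycholic acid, a secondary bile acid made by gut bacteria, at 100 µM for 24 h, and the NC library from cells without it. Whether cells were collected at once or a day later is unclear from the labels. No label names IL-4 or any other polarising agent for either library, nor the vehicle of NC or the age and number of the mice. Each group is 1 library, so every difference below is between 2 libraries with no replicate check and no test. Library depth, recovered from the values, was 56.6 M reads with DCA and 59.2 M without (M for 1e6). Macrophage markers were present: all 12 of the list were above the filter of 1 mean FPKM, from Lyz2 and Cd68 to Mertk. Their summed FPKM was 10858 in DCA and 10763 in NC, of which Lyz2 alone had 9803 and 9669. The 15 neutrophil markers summed to 4340 and 3676, and S100a9 alone had 1699 and 1471, beside 389 in each library for Cd68. Passing the filter thus does not give the share of each cell type. Markers of other marrow cells were present as well and were higher in DCA, with median ratios (DCA over NC) of 1.36 over 7 eosinophil, 1.23 over 8 lymphocyte, 1.15 over 15 neutrophil, 1.08 over 7 dendritic cell and 1.06 over 8 mast cell and basophil genes, against 0.954 over the 12 macrophage genes. In bulk RNA, more cells of a type and more RNA per cell cannot be told apart.

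IL-4 binds the receptor chain encoded by Il4ra, which pairs with the common gamma chain (Il2rg) or with the IL-13 receptor chain (Il13ra1). The Janus kinases on these chains phosphorylate STAT6, which enters the nucleus and binds palindromic sites of the form TTCNNNNGAA. In macrophages the genes that follow include Arg1 (arginase 1, which turns arginine into ornithine and urea), Retnla, the lectin receptors Mrc1 and Mgl2, the inhibitory ligand Pdcd1lg2 (PD-L2) and the protein-crosslinking enzyme Tgm2. Cish and Socs2 belong to the suppressors of cytokine signalling and are best known as feedback targets of STAT5, which binds TTCNNNGAA.

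Both forms were searched for in the RefSeq promoter windows of GRCm38.p6, which run from 250 bases before to 50 bases after a gene's start. The forms read the same on both strands, and their matches do not overlap in the windows of these genes. Windows were found for 6 of the 10 genes: Mrc1, Retnla, Il4ra, Pdcd1lg2, Mgl2 and Cish. The first form was in 2 of the 6, Retnla and Pdcd1lg2, and in 6.95% of all 32851 windows. The second was in 1 of the 6, Cish, which held it at 2 places, and in 8.30% of all windows. A match describes the letters only. The sequences of Pdcd1lg2 and Retnla are shown because they hold the STAT6 form, the short window of Cish because it holds the STAT5 form, and that of Mgl2 because it had the highest read ratio of the 9 members with one and holds neither. They are 5′ to 3′ on the plus strand, with the matches in capitals, and the first 3 end at the base before the RefSeq start.
Pdcd1lg2, chr19:29410669-29410918: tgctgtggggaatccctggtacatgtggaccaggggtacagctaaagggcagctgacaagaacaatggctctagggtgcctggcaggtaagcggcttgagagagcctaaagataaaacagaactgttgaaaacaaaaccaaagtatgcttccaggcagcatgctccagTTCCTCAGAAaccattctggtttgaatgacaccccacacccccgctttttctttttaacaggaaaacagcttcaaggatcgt
Retnla, chr16:48842359-48842608: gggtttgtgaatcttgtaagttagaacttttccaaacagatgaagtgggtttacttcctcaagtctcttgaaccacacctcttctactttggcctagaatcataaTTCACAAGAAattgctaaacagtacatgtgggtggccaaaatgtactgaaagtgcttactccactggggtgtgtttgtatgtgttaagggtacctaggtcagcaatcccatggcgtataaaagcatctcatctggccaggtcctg
Mgl2, chr11:70130107-70130356: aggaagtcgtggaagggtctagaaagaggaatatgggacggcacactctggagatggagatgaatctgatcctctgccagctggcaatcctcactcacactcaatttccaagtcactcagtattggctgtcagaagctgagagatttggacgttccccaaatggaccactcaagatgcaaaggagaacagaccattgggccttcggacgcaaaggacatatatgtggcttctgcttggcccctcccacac
Cish, chr9:107296654-107296683: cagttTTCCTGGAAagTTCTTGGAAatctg

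In Pdcd1lg2 the match TTCCTCAGAA begins 82 bases before the start, and in Retnla TTCACAAGAA begins 145 bases before it. In Cish the matches TTCCTGGAA and TTCTTGGAA lie at and just after the RefSeq start. Of the genes with a match, only Pdcd1lg2 and Cish have expression values here. They were at 32 and 79 reads in DCA, against 19 and 82 in NC.

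The abundant and the rare members gave separate pictures. The receptor chain Il4ra, the mannose receptor Mrc1, the inhibitory receptor Cd200r1 and the transglutaminase Tgm2 were well expressed, with read ratios from 0.930 to 1.01 (DCA over NC, scaled to library depth). None of these 4 was 1.2-fold apart on the FPKM + 1 scale, where 2.11% of the 9656 genes averaging 1 FPKM or more were higher by that much and 0.715% lower. Among the 5 rare members, Mgl2 and Socs2 had ratios of 2.17 and 2.03. Pdcd1lg2 had a ratio of 1.76 whose counting interval includes equality, Cish was level, and Arg1 had 26 and 38 reads. The median difference of the 4 tested members in log2(FPKM + 1), DCA minus NC, was -0.05, beside 0.01 over all tested genes. Without the filter, the median over all 9 was 0.0013.

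**Figure D1:**
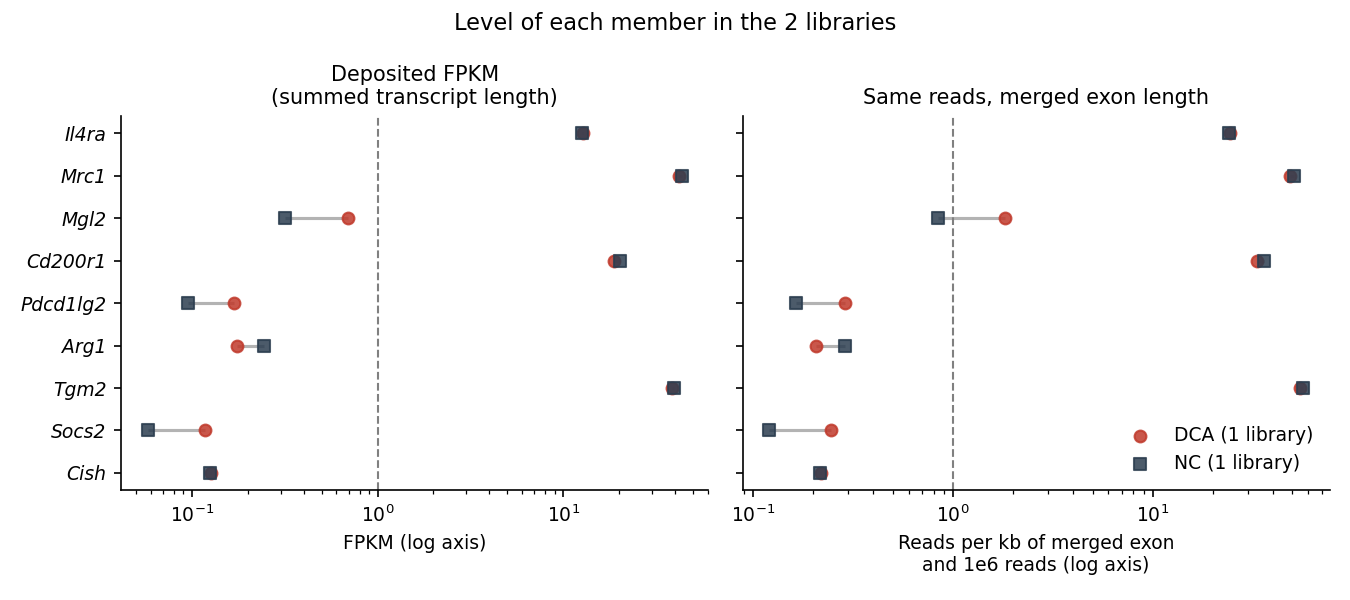
Level of the 9 members in the DCA library (circles) and the NC library (squares), as deposited FPKM on the left and as reads per kilobase of merged exon and 1e6 reads on the right, both on log axes; the dashed line is at 1. Il4ra, Mrc1, Cd200r1 and Tgm2 lie above 10 in both panels with overlapping symbols, and Mgl2 is below 1 in both libraries on the left but at 1.82 in DCA on the right.

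The deposited FPKM cannot be used to rank genes, because the length behind it is the sum of all annotated transcripts of a gene. That sum exceeded the merged exon length 2.64 times for Mgl2 and 2.08 times for Socs2, which has 14 annotated transcripts, but only 1.17 times for Mrc1. The rebuilt reads were therefore also divided by the merged exon length, an alternative added after the values were seen. On that scale the mean level of the libraries was highest for Tgm2 at 55.6, followed by Mrc1 at 49.9, Cd200r1 at 34.7, Il4ra at 24.2 and Mgl2 at 1.33. These 5 kept that order in each library. Arg1, Pdcd1lg2, Cish and Socs2 followed at 0.247, 0.226, 0.217 and 0.183, and their order was not the same in the libraries: Pdcd1lg2 was the highest of the 4 in DCA, at 0.288, and Arg1 in NC, also at 0.288. Tgm2 and Mrc1 stood above 95.4% and 94.6% of the 15548 genes ranked, Il4ra above 86.3%, Mgl2 above 34.8%, and the last 4 above 22.7% to 24.6%.

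Il4ra (ENSMUSG00000030748, GRCm38 chromosome 7, 125552120 to 125579474, plus strand) had 12.7 FPKM with DCA and 12.6 without, from 8269 and 8580 reads. Its ratio was 1.01, with a 95% counting interval of 0.979 to 1.04, and fell to 0.999 when the libraries were scaled to the sum of the table. The gene for the receptor chain was thus level within counting error. An antisense gene, Gm44876, shares 571 of its exonic bases (9.51%). The sources used here do not say whether the authors' counting used strand, so reads from the 2 cannot be told apart there.

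Of the genes around the receptor, 13 of the 15 found in the table were tested. Of these 9 were higher and 4 lower in DCA, and none was 1.2-fold apart. Over all tested genes 53.5% were higher in DCA, and each count of higher and lower genes below is to be read beside that share. The 13 genes' median difference in log2(FPKM + 1) was 0.01, beside 0.01 over all tested genes. Stat6 had 52.7 FPKM with DCA and 49.7 without, a ratio of 1.06 (1.04 to 1.08). Il2rg, which lymphocytes also express, was at 31.99 and 29.3 FPKM, a ratio of 1.09 (1.06 to 1.13). Il13ra1 at 0.987 (0.939 to 1.04), Jak1 at 1.01 (0.989 to 1.03) and Jak3 at 1.04 (0.977 to 1.10) included equality. The cytokine gene Il4 itself had 49 reads with DCA and 34 without, a ratio of 1.51 (0.954 to 2.41) that also includes it. Exons of Stat6, Il2rg, Jak1 and Jak3 overlap other annotated genes. Transcripts of every receptor chain named here and of Stat6 were thus present in both libraries.

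Mrc1, the macrophage mannose receptor that takes up glycoproteins (ENSMUSG00000026712, chromosome 2, 14229392 to 14332057, plus strand), had 41.9 FPKM with DCA and 43.5 without. With 17635 and 19150 reads its ratio was 0.964 (0.944 to 0.984). Cd200r1, the receptor through which CD200 restrains myeloid cells (ENSMUSG00000022667, chromosome 16, 44765736 to 44794978, plus strand), had 18.7 and 20.1 FPKM from 6325 and 7117 reads, a ratio of 0.930 (0.899 to 0.962). Tgm2 (ENSMUSG00000037820, chromosome 2, 158116402 to 158146436, minus strand) stood at 38.4 and 39.7 FPKM from 14263 and 15434 reads, a ratio of 0.967 (0.945 to 0.990). All 3 were lower in DCA, and their counting intervals excluded equality. So did those of 20.0% of tested genes on the lower side and 25.6% on the higher, so an interval off 1 is common in this pair of libraries. The 12 macrophage markers ranged from 0.896 to 1.01, with 9 of the 12 lower, and the 3 genes lay inside that range.

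Overlap with other genes touches Tgm2 among these. Its exons share 370 bases with Rprd1b on the opposite strand, which had 2529 and 2384 reads and a ratio of 1.11 (1.05 to 1.17), and 633 bases with Gm20412, also opposite. Mrc1 and Cd200r1 overlap no annotated exon of another gene. Cd200r1 has close relatives: 1.16% of its 50-base words also occur in other genes, all of them in Cd200r4. Cd200r4 had 15.3 FPKM with DCA and 15.0 without, a ratio of 1.02 (0.980 to 1.06). Cd200r3, at 436 and 494 reads, had a ratio of 0.924 (0.810 to 1.05), and Cd200r2, at 25 and 48 reads, 0.545 (0.322 to 0.902). The ligand gene Cd200 was below 1 FPKM in both libraries, at a ratio of 1.04 (0.911 to 1.18).

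Mgl2, a C-type lectin that binds galactose and N-acetylgalactosamine and also marks a class of dendritic cells (ENSMUSG00000040950, chromosome 11, 70130329 to 70137550, plus strand), had 0.692 FPKM with DCA and 0.318 without. Its 216 and 104 reads gave the highest ratio of the 9 members, 2.17 (1.71 to 2.77). Over the merged exon length its level was 1.82 in DCA and 0.839 in NC, a mean above 1. On that scale it was 1.54-fold higher in level + 1, where 0.401% of 10474 genes with a mean of at least 1 were at least 1.5-fold higher. Mgl2 entered those genes only through its DCA level, and the scale was added after the values were seen. That share is thus no support for a difference. On the deposited scale the same reads gave 1.28-fold, and the gene was not tested. The side of the filter on which Mgl2 falls is thus set by the length used.

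Mgl2 has a near copy, Clec10a (also called Mgl1). The coding sequences of their first annotated GENCODE vM21 transcripts were identical at 91.5% of 915 aligned bases. Of the 50-base words of Mgl2, 12.2% also occur in Clec10a. A 183-base coding run, bases 547 to 729 of Mgl2, is the same in both, and reads that lie wholly inside it cannot be assigned to either gene. The 90-base stretch with the most differences has 27, shown in capitals, which tell the genes apart. The shared run comes first and the differing stretch of each gene after it, 5′ to 3′.
Shared run: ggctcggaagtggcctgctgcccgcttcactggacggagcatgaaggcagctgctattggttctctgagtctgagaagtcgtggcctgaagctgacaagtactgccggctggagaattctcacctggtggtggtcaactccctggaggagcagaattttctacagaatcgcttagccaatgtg
Mgl2, coding bases 838 to 927: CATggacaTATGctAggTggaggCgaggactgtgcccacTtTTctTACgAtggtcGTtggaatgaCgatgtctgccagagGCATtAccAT
Clec10a, coding bases 793 to 882: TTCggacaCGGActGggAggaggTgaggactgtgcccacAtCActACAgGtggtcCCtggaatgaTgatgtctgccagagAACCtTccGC

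Clec10a had 3.43 FPKM with DCA and 2.16 without, from 1715 and 1131 reads, a ratio of 1.59 (1.47 to 1.71). Summed over both genes the reads were 1931 and 1235, a ratio of 1.64 (1.52 to 1.76), which does not depend on how shared reads were split between the pair. Both lectin genes were thus higher in DCA. In the same libraries 6 of 7 tested dendritic cell markers were higher, with ratios from 0.941 to 1.68. The summed deposited FPKM of the 10 in the list was 167 in DCA and 140 in NC, with Ly6d at 98.4 and 80.3. The part of each gene in that sum depends on the length used. No marker of that list was at 0, but they did not share a direction. Ccr7, at 12.2 and 7.27 FPKM, had the ratio of 1.68, Flt3 and Itgax were at 1.05 (0.997 to 1.10) and 1.01 (0.952 to 1.07), and Cd209a, Zbtb46 and Xcr1 at 0.941 (0.872 to 1.02), 0.935 (0.813 to 1.08) and 0.669 (0.378 to 1.16). The part of such cells in the Mgl2 and Clec10a values was not tested.

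Pdcd1lg2, the ligand PD-L2 that binds the T-cell receptor PD-1 (ENSMUSG00000016498, chromosome 19, 29410919 to 29471161, plus strand), had 0.167 FPKM with DCA and 0.0950 without. With 32 and 19 reads its ratio was 1.76 (0.969 to 3.29), so at this depth no difference could be detected. The related ligand Cd274 (PD-L1), whose exons overlap another gene, was much better covered, at 9.92 and 8.75 FPKM and a ratio of 1.13 (1.06 to 1.21). Pdcd1, the receptor, had 15 and 30 reads, a ratio of 0.523 (0.262 to 1.004).

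Arg1 (ENSMUSG00000019987, chromosome 10, 24915221 to 24927484, minus strand) stood at 0.175 FPKM with DCA and 0.245 without, a ratio of 0.716 (0.417 to 1.21) that includes equality. It had the lowest ratio of the 9 members. Its mitochondrial counterpart Arg2 was the arginase with most reads, at 12.97 and 11.02 FPKM, a ratio of 1.18 (1.08 to 1.29). Arg2 overlaps another annotated gene. Over arginine and polyamine metabolism 14 genes were tested, 7 higher and 7 lower, with a median difference of -0.01. Ass1, which resupplies arginine from citrulline, was the one gene of them at least 1.2-fold higher, at a ratio of 1.38 (1.21 to 1.57), and Smox, spermine oxidase, was at 0.755 (0.712 to 0.8004), short of 1.2-fold lower on the FPKM + 1 scale but past it with a pseudocount of 0.1. Both were chosen after their values were seen. Nos2, the enzyme that competes with arginase for arginine, had no row in the table and was not analysed here.

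Socs2 (ENSMUSG00000020027, chromosome 10, 95385362 to 95417180, minus strand) stood at 0.117 FPKM with DCA and 0.0578 without. Its 132 and 68 reads gave a ratio of 2.03 (1.51 to 2.76). Cish (ENSMUSG00000032578, chromosome 9, 107296026 to 107302784, plus strand) was also rare, at 0.126 and 0.125 FPKM, but level, with 79 and 82 reads and a ratio of 1.01 (0.731 to 1.39), or 0.999 when scaled to the sum of the table. The 2 feedback genes, both known for following STAT5, thus differed in ratio, and their counting intervals do not overlap. Exons of Cish share 479 bases with Gm17041 and 261 with Gm17040, both on the opposite strand, and 4.19% of the 50-base words of Socs2 occur in Gm9847. Lymphocytes also express Socs2 and Cish. In the same libraries 8 of 8 tested lymphocyte markers were higher, with ratios from 1.13 to 1.52. The 1.52 was that of Cd4, whose mean passed the filter only through DCA, at 1.26 FPKM against 0.831. Of all 13 in the list 11 were higher and 1 lower, Cd3e, with 7 and 16 reads, and Vpreb2 was at 0 in both. The summed FPKM was 175 in DCA and 140 in NC, the largest parts from Cd79a (76.7 and 60.4) and Cd79b (47.1 and 38.1). The part of lymphocytes in the Socs2 value was not tested.

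The rare members are to be read beside other genes of low level. Among 2501 genes with a mean FPKM under 1 and at least 50 reads in all, the counting interval lay above 1 for 23.8% and below 1 for 17.2%. Over tested genes these shares were 25.6% and 20.0%. Of the 2501 genes, 13.8% had a ratio of at least 1.5. Of the 5 rare members, all with at least 50 reads, 2 had an interval above 1 (Mgl2 and Socs2), none below, and 3 a ratio of at least 1.5.

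**Figure D2:**
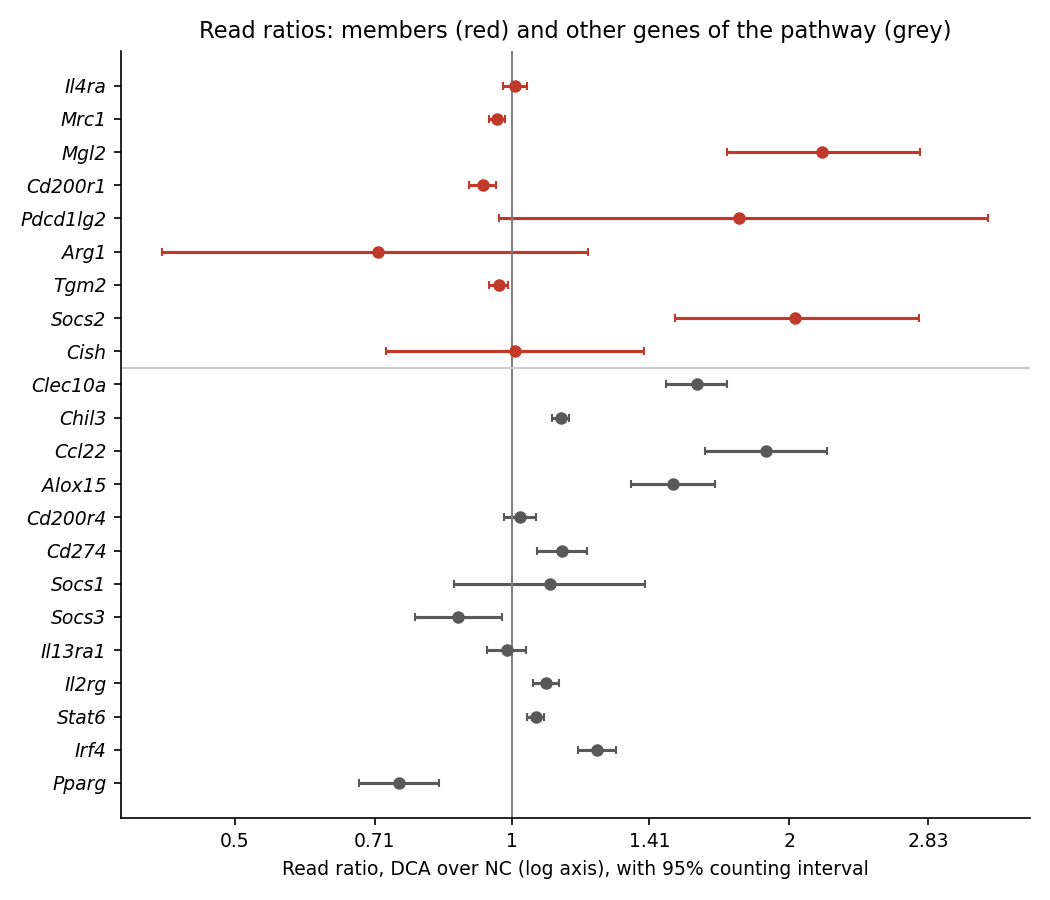
Read ratio, DCA over NC, on a log axis for the 9 members (red) and 13 other genes of the pathway (grey), with bars for the 95% interval of counting error between 2 libraries. Il4ra, Mrc1, Cd200r1 and Tgm2 lie between 0.930 and 1.01 with short bars, Mgl2 and Socs2 lie above 2, and the bars of Pdcd1lg2, Arg1 and Cish cross 1.

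The wider set of SOCS genes and STAT5 input had 17 tested genes, 11 higher and 6 lower, none 1.2-fold apart, with a median difference of 0.01. Socs3, a feedback inhibitor of STAT3 signalling, had 3.34 FPKM with DCA and 3.82 without, a ratio of 0.875 (0.785 to 0.975). Socs1, a feedback inhibitor of cytokine receptors, had 147 and 140 reads and a ratio of 1.10 (0.866 to 1.40). Stat5a was at 1.10 (1.05 to 1.16) and Stat5b at 1.03 (0.993 to 1.06). The receptor chains Csf2rb, used by GM-CSF, and Csf2rb2, used by IL-3, resemble each other, and their exons overlap other annotated genes. They were at 0.961 (0.940 to 0.982) and 1.004 (0.972 to 1.04).

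Of the transcription factors and chromatin regulators of alternative activation, 10 were tested, 5 higher and 5 lower. Klf4, which cooperates with STAT6, was at 4.12 FPKM with DCA and 1.26 without, the one gene of the list at least 1.5-fold higher. Over all tested genes 0.342% were at least 1.5-fold higher and 0.155% lower. Whole reads could not be rebuilt for Klf4, so its FPKM ratio of 3.26 has no interval. Irf4, which dendritic and B cells also express, was at 6.73 and 5.44 FPKM, a ratio of 1.24 (1.18 to 1.30). Pparg, a nuclear receptor for fatty acids, lay the other way, at 1.47 and 1.94 FPKM and a ratio of 0.755 (0.683 to 0.834). These 3 regulators of the same programme thus did not share a direction.

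Among 12 tested further genes of alternative activation, 7 were higher and 5 lower, and 4 were at least 1.2-fold higher (2.11% of all tested genes were): Ccl22, Clec10a, Alox15 and Cdh1. Ccl22, a chemokine for T cells, passed 1.5-fold, with 483 and 268 reads and a ratio of 1.89 (1.62 to 2.20). Alox15 and Cdh1, named after their values were seen, were at 1.496 (1.35 to 1.66) and 1.34 (1.23 to 1.45). Chil3, the chitinase-like protein Ym1, which neutrophils also express, was at 143 and 127 FPKM, a ratio of 1.13 (1.11 to 1.15). Igf1, a growth factor, and Cd36, a scavenger receptor, also named after their values were seen, lay the other way at 0.818 (0.787 to 0.851) and 0.878 (0.866 to 0.889). The IL-4-induced chemokines Ccl17 and Ccl24 were near the floor, with 5 and 10 reads and 3 and 4 reads. Beside these values, 8 of 9 eosinophil markers were higher in DCA, and none of the list was at 0. The summed FPKM of the 9 was 125 in DCA against 86.6, most of it from Prg2 at 97.0 and 65.9. Epx, eosinophil peroxidase, had the highest ratio of the list, 1.90 (1.65 to 2.19). Ccr3 was at 1.08 (0.917 to 1.28), and Il5ra, the 1 lower marker, at 0.960 (0.760 to 1.21). The part of eosinophils in the Alox15 value, of neutrophils in that of Chil3 and of dendritic cells in that of Ccl22 was not tested.

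Retnlg, the neutrophil relative of Retnla, was at 540 FPKM with DCA and 425 without, a ratio of 1.27 (1.25 to 1.30). Retn, the gene of resistin, had 0 reads with DCA and 11 without. Classical activation genes, the opposite pole of the textbook scheme, had 10 tested genes with 7 higher and 3 lower and a median difference of 0.05. Over all 7 lists, 80 of the 110 genes in the table were tested and 9 were at least 1.2-fold higher, with 0 lower, beside 2.11% higher and 0.715% lower over all tested genes. With each library rescaled to a sum of 1e6, which also shrinks the weight of the pseudocount, the counts were 9 and 4, the 4 lower being Pparg, Smox, Igf1 and Ptgs2. Among the 9 before rescaling were Retnlg, Cd38 of the classical list and Irf4, which only just passed at 1.2001-fold. The lists were chosen with earlier results of these data known, so these counts, and those of each list above, are no test.

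**Figure D3:**
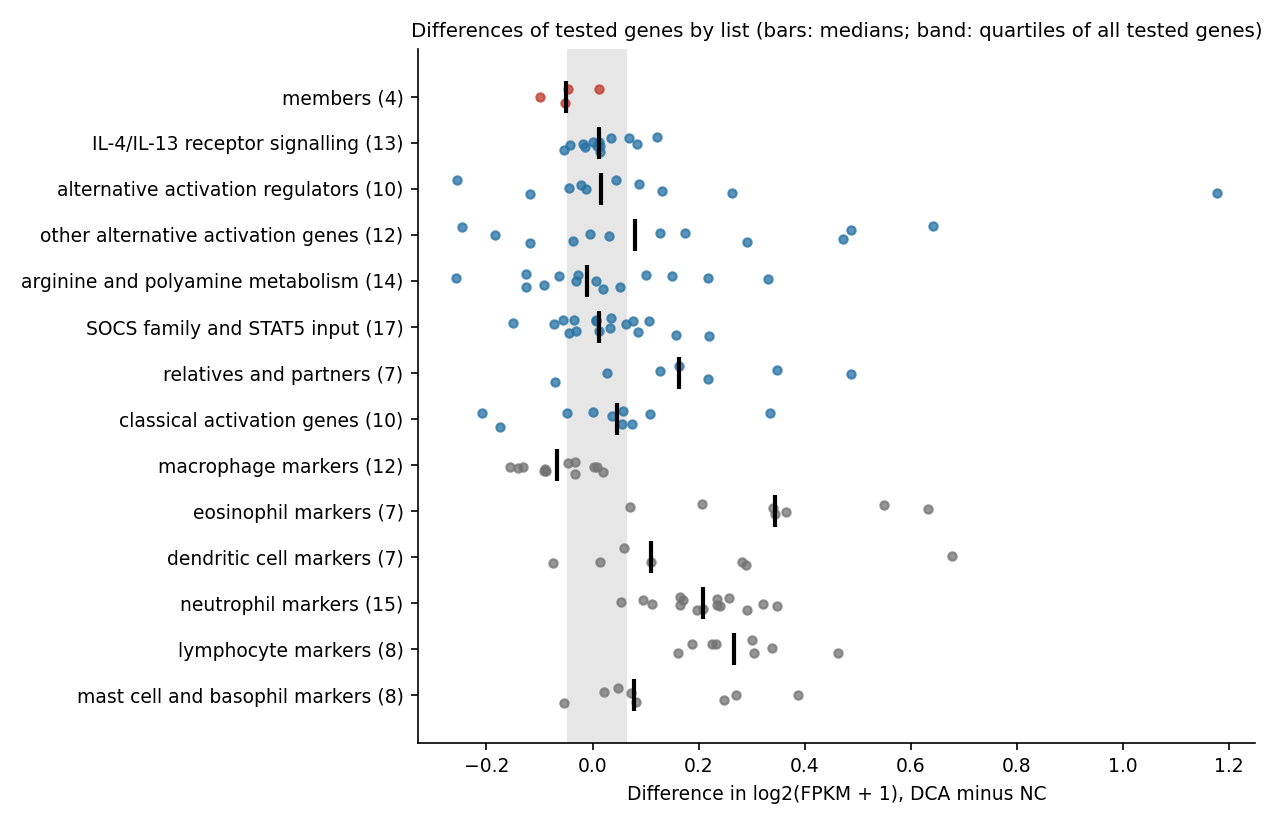
Difference in log2(FPKM + 1), DCA minus NC, of each tested gene by list (number of tested genes in brackets), with members in red, pathway lists in blue, cell type markers in grey, black bars for list medians and a band for the quartiles of all 9656 tested genes. The 4 tested members lie between -0.10 and 0.01, while the medians of the eosinophil, lymphocyte and neutrophil markers lie at 0.34, 0.27 and 0.21.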

How the data were processed

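The authors deposited FPKM for 15576 genes in 1 DCA and 1 NC library. Per the submitters' processing notes, STAR 2.5.0c and HTSeq 0.6.0 were among the tools and GRCm38 the build; the sources used here do not give their settings, gene lengths or filters. Columns were matched to libraries by name. The members and gene lists were chosen with earlier results of these data known.

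GENCODE vM21 held 15548 of the identifiers. Multiplying FPKM by summed transcript length and read total gave integers (tolerance 0.05) in both columns for 12068 of 12491 genes under 5000 reads, or 96.6%, where 1% would do so by chance. The remaining genes have FPKM ratios only. Differences are in log2(FPKM + 1), which understates those of low genes; genes averaging 1 FPKM or more were set against 1.2-fold and 1.5-fold limits. Ratios of reads, scaled to the read totals, have exact Clopper-Pearson 95% intervals (scipy 1.17.1), which cover counting error only, since PCR copies are not independent molecules. Rebuilding and intervals were run on simulated reads with counting error only, which checks the code and not the spread between libraries. Named genes were all members, list genes at least 1.5-fold apart (up to 2 per direction), a set fixed by symbol, and genes overlapping members; any others, such as Ass1, Smox, Alox15, Cdh1, Igf1, Cd36 and most cell type markers, were chosen after their values were seen. Other pseudocounts, filters, scalings and lengths were tried as alternatives.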

Additional observations from a re-analysis of the deposited data

How the results depend on the processing

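The median difference of the tested members was -0.05 and stayed negative with pseudocounts of 0.1 and 5, both other scalings, a filter at 5 FPKM, the merged exon length and without genes with overlapping exons. With no filter it was 0.0013, since the 5 rare members then enter. With the merged exon length, added after the data were seen, the count of tested members at least 1.2-fold apart rose from 0 to 1 (Mgl2). Mgl2 entered that count only because its DCA level of 1.82 lifted the mean above 1, beside 0.839 in NC. Of the pathway genes, 9 were at least 1.2-fold higher, against 4 with pseudocount 5 and 2 among genes averaging 5 FPKM or more. None was 1.2-fold lower, against 4 with pseudocount 0.1, 4 after rescaling to 1e6 and 2 with the merged exon length. The rescaling also shrinks the weight of the pseudocount, and the same 4 genes passed with it and with pseudocount 0.1; with the median ratio set to 1 the count was 0. Intervals of 5 members excluded equality under all 3 scalings tried. Of 45 alternative differences of single members, 2 moved beyond their counting interval, both for Mgl2, and none reversed among those whose interval excluded equality; none of 18 ratios did either. No paired analysis was possible because each group has 1 library. Depth limits Arg1, Pdcd1lg2 and Cish, whose intervals include equality.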
